A study of Oryza sativa with 8 samples.

Results

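The Aux/IAA and ARF genes of rice encode the nuclear proteins through which auxin alters transcription. They were taken as all genes whose symbol or synonym is IAA or ARF followed by a number alone, with or without an Os prefix, and 51 genes (28 Aux/IAA and 23 ARF) carry such a name. Of these, 43 had a probe set assigned to them alone, and 39 (23 Aux/IAA and 16 ARF) had a probe set with a mean scaled signal of at least 200 over the 8 arrays. Those 39 are described here, out of 13839 genes that met the same minimum. IAA11, IAA29, ARF5, ARF6, ARF8, ARF19, ARF21 and ARF25 had no such probe set, and IAA4, IAA8, IAA16 and ARF13 stayed under the minimum. Nearest to the minimum were IAA26 above it, with a mean probe set signal of 253, and IAA8 below it, with 145.

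Aux/IAA proteins bind ARF transcription factors and, with TOPLESS-type co-repressors, keep auxin-responsive genes silent. Auxin joins Aux/IAA proteins to TIR1/AFB receptor proteins, which leads to Aux/IAA degradation and frees the ARFs, and ARFs can then activate genes, Aux/IAA genes among them. In roots of dark-grown seedlings, ethylene inhibits elongation, and in Arabidopsis and rice this response needs auxin. In rice, IAA26 and IAA9 have been placed in this response: the ubiquitin ligase SOR1 marks IAA26 protein for degradation, and IAA9 protein restrains SOR1. Rice Aux/IAA and ARF numbers differ between publications, so the roles given here for IAA9, IAA13, IAA23, IAA26 and ARF12 hold if the gene table uses the common numbering, which was not checked.

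The study compared mhz7 mutant rice with wild type (WT), each with 10 ppm ethylene or air for 8 h, in roots and in shoots. All seedlings were 3 days old and kept in the dark at 28 °C after germination at 37 °C for 2 days. The 8 Affymetrix arrays hold 1 sample for each combination: mhz7 in ethylene, mhz7 in air, WT in ethylene and WT in air, for each tissue. For the rice line, the mhz7 allele and the number of plants per sample the sources used here say nothing, and the arrays titled MHZ7 are taken as the mutant, since the design names only wild type and mutant. MHZ7 is a synonym of EIN2, a membrane protein that carries the ethylene signal to the nucleus.

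EIN2 read 2462 in ethylene and 2792 in air in mhz7 roots, against 1064 and 1649 in WT roots, and 1574 and 1532 in mhz7 shoots, against 747 and 859 in WT shoots. Since the lesion is not given, these signals do not check the genotype label. All 7 measured shoot marker genes of photosynthesis and chlorophyll synthesis were higher in shoots in 4 of 4 pairs, and 8 of 10 root marker genes were higher in roots in 4 of 4. The summed shoot marker signal on the root arrays was 1.13% (mhz7, ethylene), 1.28% (mhz7, air), 1.52% (WT, ethylene) and 2.67% (WT, air) of that on the matching shoot arrays, and 1 to 4 of the 7 markers were under the floor there. Root markers on shoot arrays stood at 2.31%, 4.08%, 2.99% and 4.55% of their root signal in the same order, with 2 to 4 of 10 under the floor. Actin control probe sets at the 3′ and 5′ ends gave a 3′ over 5′ ratio, which increases with RNA degradation. This ratio lay between 6.34 and 13.5 and was highest in mhz7 shoots in ethylene. It was higher on the mhz7 array in every genotype comparison below, and on the ethylene array in every gas comparison. Whether tissue carry-over or RNA quality had a part in the differences below was not tested. On bulk tissue arrays, fewer cells of a type and less RNA per cell cannot be told apart.

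With 1 array per condition, a difference between 2 arrays has no replicate check and no p-value, and how few arrays there are sets the precision. In such a comparison a gene is called higher or lower where the signals, set to at least 100, differ at least 2-fold and the higher one is at least 200. The fits over 4 pairs used limma, with Benjamini-Hochberg adjustment over 21444 probe sets, and a gene passes where its adjusted p is below 0.05. The labels name no separate cultures or plants, so these p-values measure only the spread between the arrays, which may be technical. In a fit over 4 pairs that spread also holds any real difference of the effect between pairs, such as between WT and mhz7. A gene that responds in some pairs only may therefore not pass. Ethylene and genotype comparisons share arrays: the WT ethylene array of a tissue enters both, so their values for a gene are not independent. Probe sets differ in how strongly they bind their targets, so a signal sets no transcript level of a gene against that of another gene, and the mean signal serves only to choose members and which of them to print.

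Most members differed little with gas or genotype, and the differences of 2-fold or more belonged to 4 Aux/IAA genes. Of the 39 members, 4 were at least 2-fold different in any of the 8 comparisons of gas or genotype (10.3%), against 1538 of 13839 genes (11.1%). These 4, IAA20, IAA26, IAA9 and IAA2, are 17.4% of the 23 Aux/IAA genes, and the count among the 16 ARF genes was 0. IAA26 met the signal minimum only through the WT root array in ethylene, on which its calls rest, so its place in these counts is a description. In all 8 comparisons 30 members (76.9%) stayed within 1.5-fold, against 75.4% of all genes. By family this was 16 of 23 Aux/IAA genes (69.6%) and 14 of 16 ARF genes (87.5%). Neither share was tested against the rest of the genes.

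**Figure D1:**
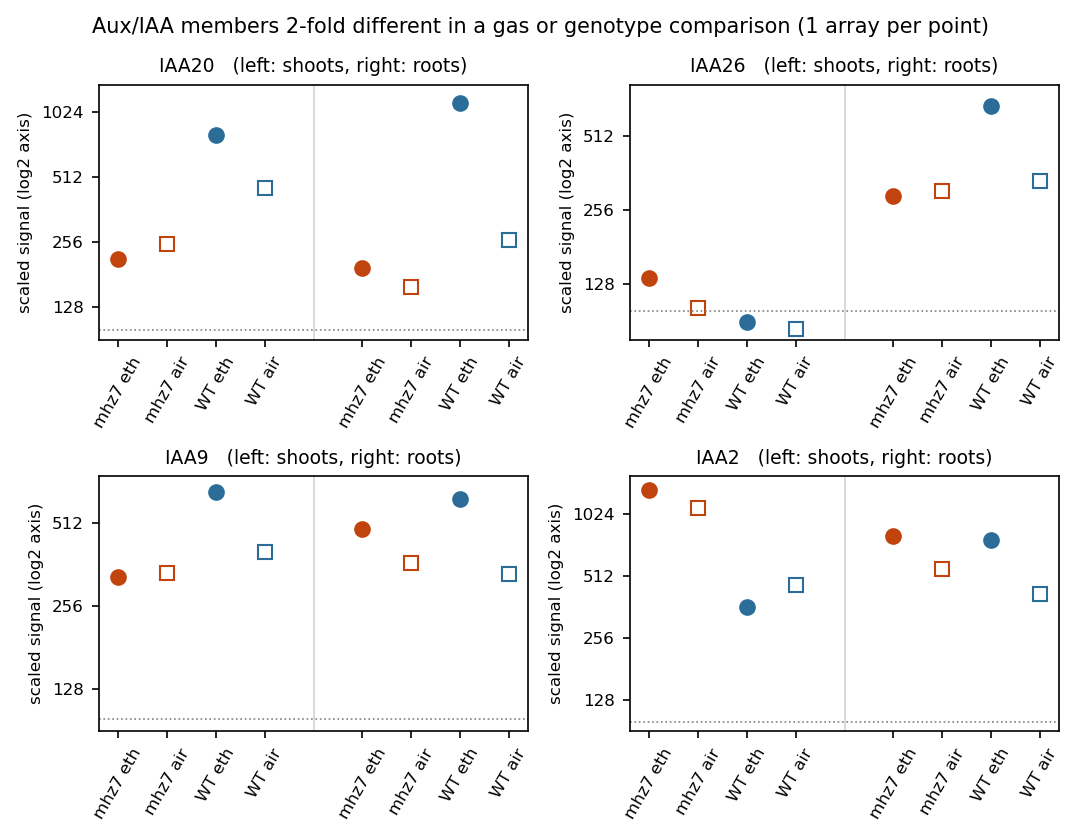
Scaled signal (log2 axis) of IAA20, IAA26, IAA9 and IAA2 on each of the 8 arrays, 1 point per array, shoots on the left of each panel and roots on the right, with filled circles for ethylene, open squares for air, orange for mhz7 and blue for WT. The dotted line is the floor of 100. IAA20 lay between 158 and 249 on the 4 mhz7 arrays, against 1128 for ethylene-treated WT roots and 801 for ethylene-treated WT shoots, while IAA2 was above 1000 in mhz7 shoots and below 800 elsewhere.

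IAA20 (LOC4340245) had the largest difference of the family in the comparisons of gas or genotype. In roots it read 194 in ethylene and 158 in air in mhz7, against 1128 in ethylene and 262 in air in WT. In shoots it read 212 in ethylene and 249 in air in mhz7, against 801 in ethylene and 453 in air in WT. All 4 mhz7 arrays lay below all 4 WT arrays, and the 2 WT ethylene arrays were the highest. With ethylene, IAA20 was 4.30-fold higher in WT roots, and its log2 difference with ethylene was 0.30 in roots and -0.23 in shoots of mhz7 and 0.82 in shoots of WT. With ethylene present, mhz7 stood 5.82-fold lower than WT in roots and 3.77-fold lower in shoots. In air the log2 difference between mhz7 and WT was -0.73 in roots and -0.86 in shoots, under the 2-fold limit.

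Over the 4 pairs, IAA20 was lower in mhz7 by a mean log2 difference of -1.51 (SE 0.333, limma adjusted p = 0.0916, lower in 4 of 4 pairs), so it did not pass. Fitted on the 2 ethylene pairs alone the value was -2.23 (SE 0.213, adjusted p = 0.343), and on the 2 air pairs alone -0.80 (SE 0.132, adjusted p = 0.27); both fits were added after the data were seen. Over its alternatives the adjusted p ranged between 0.0846 and 0.463. The ethylene effect over 4 pairs was 0.75 (SE 0.372, adjusted p = 0.651, higher in 3 of 4), and 0.30 without the WT root pair. The difference of the ethylene effect between mhz7 and WT was -1.43 (SE 0.471, adjusted p = 0.966), which did not pass.

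IAA26 (LOC4347643), the SOR1 substrate if the numbering holds, gave its higher signals in roots. In roots it read 292 in ethylene and 307 in air in mhz7, against 679 in ethylene and 335 in air in WT. In shoots it read 136 and 102 in mhz7 and 90.3 and 84.5 in WT, in ethylene and air, and both WT values lie under the floor. The WT root array in ethylene stood alone above the other 3 root arrays, which lay between 292 and 335. IAA26 was 2.02-fold higher with ethylene in WT roots and, between ethylene-treated roots, 2.33-fold lower in mhz7 than in WT. The first of these calls sits at the limit and ends with quantile normalization, where the log2 difference is 0.98. The ethylene difference in mhz7 roots was -0.07 on the log2 scale, and the 4-pair fits gave 0.34 for ethylene (SE 0.19, limma adjusted p = 0.681) and -0.22 for mhz7 (SE 0.274, adjusted p = 0.682). The ethylene value was 0.11 without the WT root pair.

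IAA9 (LOC4331061), whose protein restrains SOR1, read highest on the WT ethylene arrays. In roots it had 489 in ethylene and 367 in air in mhz7, against 629 in ethylene and 336 in air in WT. In shoots it had 328 in ethylene and 339 in air in mhz7, against 667 in ethylene and 402 in air in WT. IAA9 was 2.04-fold lower in mhz7 than in WT shoots in ethylene, close to the limit. Its log2 differences with ethylene were 0.41 in roots and -0.05 in shoots of mhz7, and 0.90 in roots and 0.73 in shoots of WT, each under 2-fold. Over the 4 pairs the ethylene effect was 0.50 (SE 0.161, limma adjusted p = 0.601, higher in 3 of 4). In the 2 WT pairs alone, a fit added after the data were seen, it was 0.82 (SE 0.106, adjusted p = 0.35). The difference of the effect between mhz7 and WT was -0.63 (SE 0.193, adjusted p = 0.932), which did not pass.

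IAA2 (LOC4326775) differed the other way, with higher signals in mhz7 shoots. In shoots it read 1333 in ethylene and 1098 in air in mhz7, against 362 in ethylene and 461 in air in WT. In roots it read 798 in ethylene and 551 in air in mhz7, against 765 in ethylene and 420 in air in WT. The shoot arrays of the genotypes did not overlap, whereas the root arrays did. IAA2 was 3.68-fold higher in mhz7 than in WT shoots in ethylene and 2.38-fold higher in air. The actin ratio was 13.5 in mhz7 and 8.26 in WT shoots in ethylene, and 9.55 in mhz7 and 6.34 in WT shoots in air; its part in this difference was not tested. Over the 4 pairs the mhz7 effect was 0.90 (SE 0.318, limma adjusted p = 0.191, higher in 4 of 4), and 0.57 without the pair of shoots in ethylene.

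With ethylene, IAA2 had log2 differences of 0.28 in shoots and 0.53 in roots of mhz7, and of -0.35 in shoots and 0.87 in roots of WT. The difference of the ethylene effect between shoots and roots was -0.74 (SE 0.255, limma adjusted p = 0.711), which did not pass.

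With ethylene, the 2-fold differences among members were in WT roots. The count of members called was 0 in mhz7 roots, against 1.01% of 13839 genes called in either direction, and 0 in mhz7 shoots, against 0.455%. In WT roots 2 members were higher (5.13%, IAA20 and IAA26) and 0 lower, against 1.76%, and in WT shoots the count was 0, against 1.75%. IAA26 is a member only through the WT root array in ethylene, so the signal minimum favoured its call. In the ethylene fit 0 members passed, as did 0.0% of all genes. At an unadjusted p under 0.05 there were 7 members (17.9%), against 1140 genes (8.24%), and the smallest adjusted p among members was 0.545. Neither the difference of the ethylene effect between mhz7 and WT nor that between shoots and roots was called for a member (0 and 0 of 39, with 0.0% and 0.0% of all genes), and 4 members were under an unadjusted 0.05 in each (10.3%), against 4.75% and 6.69% of genes.

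Smaller ethylene differences were mostly positive among the members, except in WT shoots. IAA24 (LOC4342573) read 1465 in ethylene and 1151 in air in mhz7 roots, 1543 and 1058 in WT roots, 2670 and 2420 in mhz7 shoots and 3604 and 2789 in WT shoots. Its ethylene array was the higher of each pair, by a mean log2 difference of 0.35 (SE 0.0761, limma adjusted p = 0.545). ARF17 was also above 0 in 4 of 4 pairs (0.19, SE 0.0525, adjusted p = 0.572), as were IAA31, IAA12, IAA19 and IAA30 (0.13 to 0.20, adjusted p between 0.576 and 0.613). The mean over 4 pairs was above 0 for 33 of 39 members, 22 of them among the 23 Aux/IAA genes, and the member median was 0.073 against 0.016 over all genes. The share of all genes above 0 was not counted, so these counts have no background beside them. Members above 0 numbered 31 in mhz7 roots, 33 in mhz7 shoots, 27 in WT roots and 18 in WT shoots, where 20 were below. Per comparison, the member medians were 0.13 in mhz7 roots, 0.10 in mhz7 shoots, 0.057 in WT roots and -0.015 in WT shoots, where all genes had 0, 0.018, 0.034 and -0.003.

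**Figure D2:**
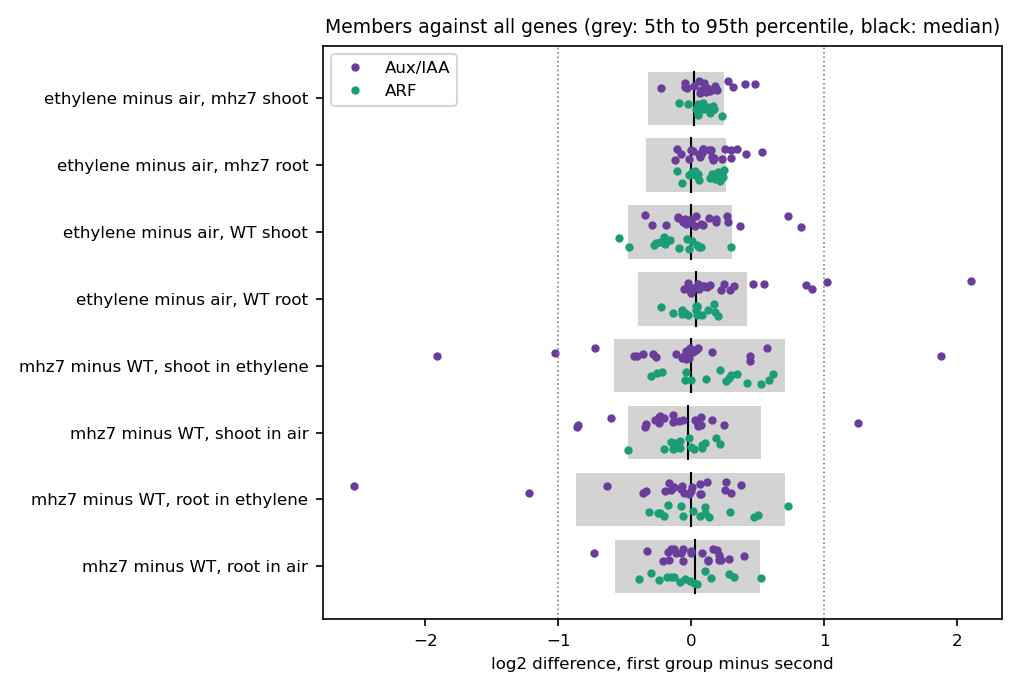
Log2 difference of each of the 39 members (purple Aux/IAA, green ARF) in the 8 comparisons of gas or genotype, with the 5th to 95th percentile of 13839 genes in grey, their median in black and dotted lines at 2-fold. Most members lie inside the grey range, and the points beyond 2-fold are Aux/IAA genes.

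For genotype, the member counts stood near or below the background in roots. In roots in air 0 members were called (background 3.23%), and in roots in ethylene 2 were lower, IAA20 and IAA26 (5.13%, background 7.12%). The IAA26 call rests on the WT array through which it met the signal minimum. In shoots in air 1 was higher, IAA2 (2.56%, background 2.67%). In shoots in ethylene 1 was higher, IAA2, and 2 were lower, IAA20 and IAA9 (7.69%, background 4.76%). In the 4-pair fit 0 members passed, against 1.47% of all genes, and 11 (28.2%) had an unadjusted p under 0.05, against 22.6%. Member medians in mhz7 minus WT lay between -0.089 (shoots in air) and -0.0059 (shoots in ethylene), with all genes between -0.026 and 0.030.

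The next largest genotype differences were under 2-fold. IAA31 (LOC4352722) read 4905 in ethylene and 3953 in air in mhz7 shoots, against 8124 and 7127 in WT shoots, a log2 difference of -0.73 and -0.85. In roots it read 8610 and 7698 in mhz7 and 8727 and 8030 in WT, in ethylene and air, so the genotypes stood apart in shoots and close together in roots. IAA30 (LOC4352721), its immediate neighbour in the gene table, read 16967 and 14871 in mhz7 shoots and 20723 and 18887 in WT shoots (-0.29 and -0.34). Over the 4 pairs IAA31 had -0.41 (SE 0.174, limma adjusted p = 0.252, and -0.27 without the pair of shoots in air) and IAA30 -0.21 (SE 0.0728, adjusted p = 0.18), each lower in 4 of 4. The mhz7 minus WT log2 difference of IAA14 was -0.41 in shoots in ethylene and -0.61 in shoots in air, and that of IAA25 was -0.64 in roots in ethylene.

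Of all genes 11.1% were called in any of the 8 comparisons, so a count of 0 among 16 members does not set a family apart. The 16 ARF genes, whose products bind DNA and activate or repress transcription, stayed within 2-fold in all 8. ARF12 (LOC4337363), which affects primary root length in rice, had the largest difference among them, with 2344 in ethylene and 1977 in air in mhz7 roots, against 1415 and 1377 in WT roots (0.73 and 0.52 on the log2 scale). In shoots it read 2428 and 2275 in mhz7 and 2090 and 2411 in WT, in ethylene and air, so the genotypes overlapped there. ARF2 (LOC4325895), also named ETTIN2, read 559 in ethylene and 502 in air in mhz7 roots, against 395 and 413 in WT roots. In shoots ARF2 read 1227 and 1250 in mhz7 and 801 and 1166 in WT, so that the WT shoot array in ethylene stood apart from the other 3.

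ARF2 averaged 0.37 higher in mhz7 on the log2 scale (SE 0.103, limma adjusted p = 0.128, higher in 4 of 4 pairs), and ARF10 0.35 higher (SE 0.107, adjusted p = 0.15, 4 of 4); neither passed. With ethylene in mhz7 shoots the median of the 16 ARF genes was 0.090, and 14 of 16 were above 0. In WT shoots it was -0.13, and 11 of 16 were below 0, with ARF2 at -0.54 and ARF10 at -0.47. In mhz7 against WT shoots in ethylene the ARF median was 0.24, and 10 of 16 were above 0. The median for WT shoots and that for mhz7 against WT share the WT shoot array in ethylene. The share of all genes above or below 0 was not counted for these comparisons.

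**Figure D3:**
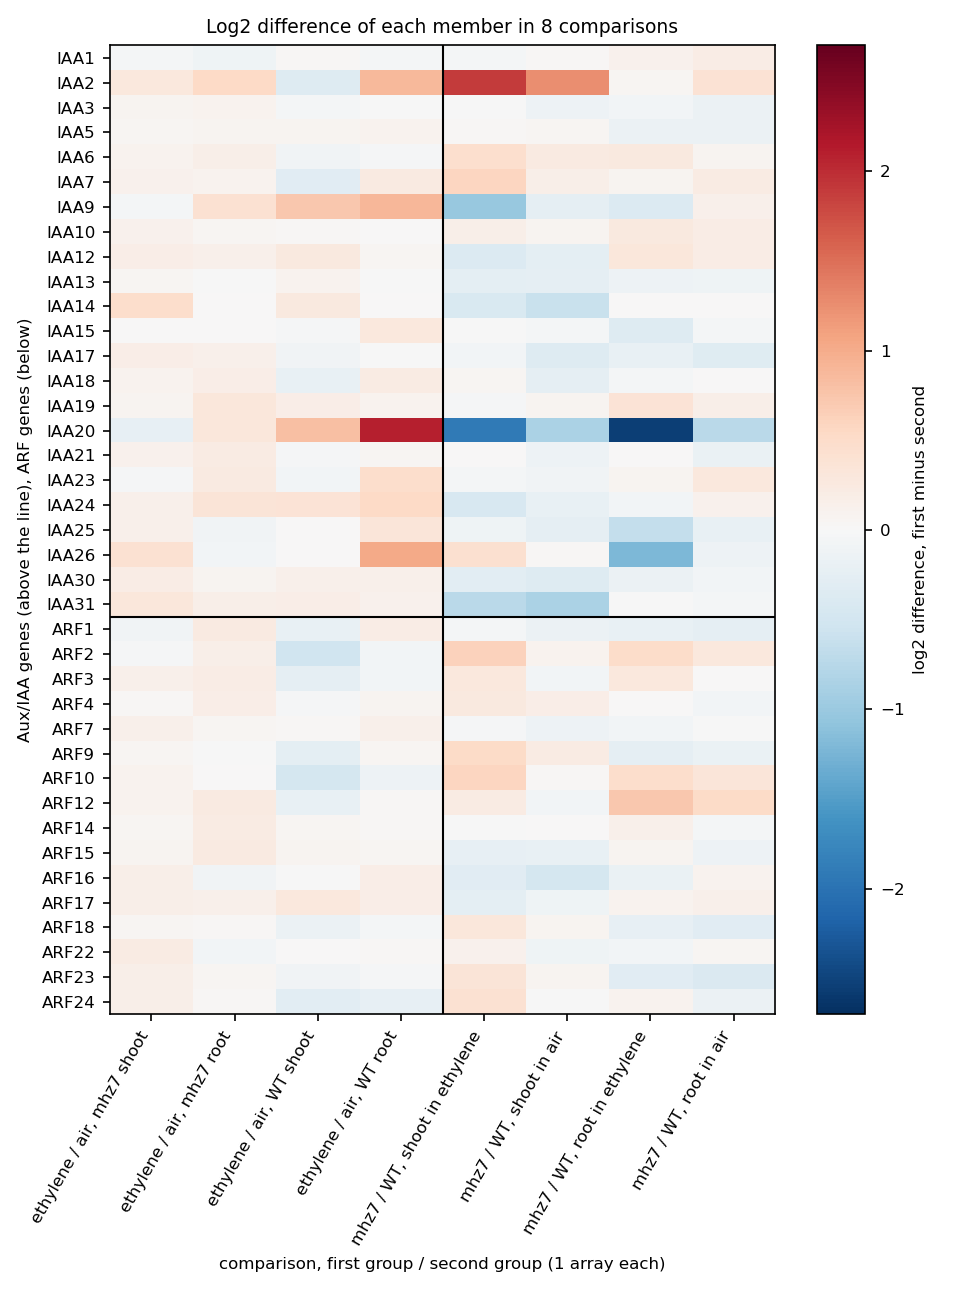
Log2 differences of the 39 members, a row each, in the 8 comparisons of gas or genotype, with the colour scale giving the difference, first-named group minus second. The strongest colours are those of IAA20, IAA26, IAA9 and IAA2, and the ARF rows are pale throughout, with ARF12 in mhz7 minus WT roots in ethylene the strongest at 0.73.

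More members differed between tissues than with gas or genotype, as did genes in general. In the shoot minus root fit, 28 of 39 members passed (71.8%), 18 higher in shoots and 10 lower, where 70.2% of all genes passed with 3553 higher and 6164 lower. The median was 0.22 over members and -0.18 over all genes. In all 4 pairs 19 members were on the shoot side, 10 on the root side and 10 on neither. Of those on the shoot and root sides, 6 and 3 were at least 2-fold apart in 4 of 4 pairs. The matching shares of all genes were not counted, so these counts have no background beside them. IAA14 and IAA26, counted among the 28, met the signal minimum through a single tissue and so had to differ between tissues; their values are a description.

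IAA18 (LOC4339365) and IAA14 (LOC4334431) were the most shoot-biased. IAA18 read 3024 and 2822 in mhz7 shoots and 2917 and 3333 in WT shoots, in ethylene and air, against 255 and 227 in mhz7 roots and 264 and 226 in WT roots. No shoot array overlapped a root array, and the mean log2 difference was 3.64 (SE 0.0874, limma adjusted p = 6.14e-06). IAA14 read 1126 and 810 in mhz7 shoots and 1491 and 1234 in WT shoots, against 43.8 and 61.4 in mhz7 roots and 77.8 and 55.3 in WT roots. All 4 root values of IAA14 are under the floor, so it was at least 11.3-fold and 8.10-fold higher in mhz7 shoots and at least 14.9-fold and 12.3-fold higher in WT shoots, in ethylene and air. Shoot markers on the same root arrays were at 1.13 to 2.67% of their shoot signal.

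IAA10 (LOC4331149) read 3697 and 3404 in mhz7 shoots and 3312 and 3243 in WT shoots, against 1368 and 1317 in mhz7 roots and 1147 and 1139 in WT roots, in ethylene and air. Its mean difference was 1.46 (SE 0.0623, limma adjusted p = 2.83e-05). ARF15 (LOC9268260), also named ETTIN1, read 2555 and 2445 in mhz7 shoots and 2970.4 and 2823 in WT shoots, against 999.7 and 847 in mhz7 roots and 956 and 927 in WT roots. It was higher in shoots by 1.53 (SE 0.0737, adjusted p = 4.33e-05), and ARF2, its ETTIN-named relative, by 1.24 (SE 0.0968, adjusted p = 0.000245). IAA21 (LOC4340939) had 9134 and 8462 in mhz7 shoots and 9049 and 9287 in WT shoots, against 4705 and 4016 in mhz7 roots and 4694 and 4536 in WT roots, a difference of 1.003 (SE 0.0605, adjusted p = 9.75e-05). ARF24 (1.17) and IAA24 (1.14) were also over 2-fold higher in shoots on average.

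**Figure D4:**
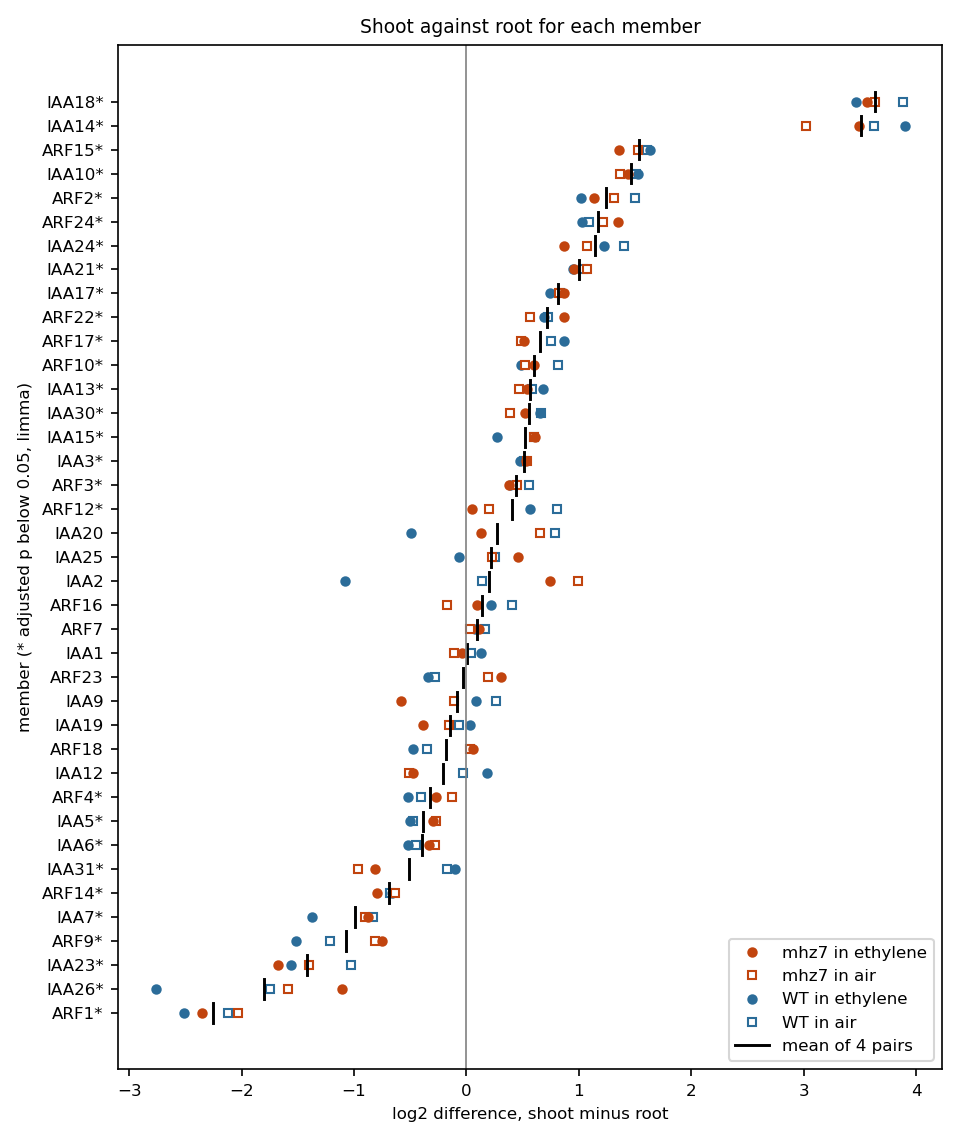
Shoot minus root log2 difference of each member in the 4 genotype and gas pairs (points), with the mean of 4 pairs as a black bar and an asterisk where the limma adjusted p is below 0.05. IAA18 and IAA14 lie above 3 on every pair, with IAA14 a lower bound since its root signals are at the floor, and ARF1 lies below -2 on every pair.

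On the root side ARF1 (LOC4327785) had the largest mean difference over the 4 pairs, although in WT in ethylene that of IAA26 was larger. It read 581 and 618 in mhz7 shoots and 599.8 and 687 in WT shoots, against 2969.6 and 2523 in mhz7 roots and 3428 and 2984 in WT roots, in ethylene and air. It was 4.77-fold lower in shoots (-2.25, SE 0.101, limma adjusted p = 3.34e-05). IAA23 (LOC4341432), which maintains the root quiescent centre in rice, read 784 and 799.9 in mhz7 shoots and 814 and 851 in WT shoots, against 2510 and 2111 in mhz7 roots and 2393 and 1733 in WT roots. Its difference was -1.42 (SE 0.121, adjusted p = 0.000339). IAA23 is read by a probe set of the cross-hybridizing type, so related transcripts may add to its signal.

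ARF14 (LOC4339313) read 337 and 325 in mhz7 shoots and 338 and 325 in WT shoots, against 584 and 503 in mhz7 roots and 533 and 520.4 in WT roots. It was lower in shoots by a mean of -0.69 (SE 0.062, limma adjusted p = 0.000404) and its 4 shoot values lay close together. IAA7 (LOC4328796) read 566 and 523 in mhz7 shoots and 381 and 468 in WT shoots, against 1036 and 975 in mhz7 roots and 987 and 834 in WT roots (-0.99, SE 0.111, adjusted p = 0.000877). ARF9 (LOC4335934) read 2039.8 and 1972 in mhz7 shoots and 1418 and 1702 in WT shoots, against 3426 and 3463 in mhz7 roots and 4066 and 3941 in WT roots (-1.07, SE 0.148, adjusted p = 0.00189). IAA26, with the signals given above, read 2.15-fold and 3.004-fold lower in mhz7 shoots than in mhz7 roots, in ethylene and air. In WT it read at least 6.79-fold and 3.35-fold lower in shoots than in roots, in the same order. It passed the tissue fit but met the signal minimum through roots alone, so these values are a description.

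The 10 members with no common side include IAA20 and IAA9. For IAA20 the shoot minus root log2 difference was 0.13 in mhz7 in ethylene, 0.66 in mhz7 in air, -0.49 in WT in ethylene and 0.79 in WT in air. The neighbours IAA30 and IAA31 lay on opposite sides, with IAA30 higher in shoots (0.56, SE 0.0742, limma adjusted p = 0.00165) and IAA31 lower (-0.51, SE 0.175, adjusted p = 0.0469). The IAA31 call is lost in 6 of 11 alternatives, among them each of 3 left-out pairs, that of ARF12 (0.41, adjusted p = 0.0498) in 7 and that of ARF4 (-0.33, adjusted p = 0.0185) in 4.

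The probe sets with the highest mean signals were those of IAA13, IAA3 and IAA17. IAA13 read 27850.2 and 26678 in mhz7 shoots and 33477 and 31448 in WT shoots, against 19135 and 19323 in mhz7 roots and 20898 and 20946 in WT roots, in ethylene and air. IAA13, known in rice for a stabilized mutant with fewer lateral roots, was thus higher in every shoot array than in any root array. IAA3 read 27260 and 25865 in mhz7 shoots and 27570 and 28494 in WT shoots, against 18898 and 17814 in mhz7 roots and 19849 and 20022 in WT roots. IAA17, read by a probe set that may take in related transcripts, had 23424 and 20741 in mhz7 shoots and 24598 and 26308 in WT shoots, against 12832 and 11724 in mhz7 roots and 14721 and 14802 in WT roots. In the limma fit the shoot minus root difference was 0.57 for IAA13, 0.51 for IAA3 and 0.82 for IAA17 (adjusted p = 0.000964, 0.000845 and 0.000192). IAA25, whose probe set was among the 3 with the lowest mean signals, read 271 and 248 in mhz7 shoots and 293 and 293 in WT shoots, and 197 and 212 in mhz7 roots and 306 and 245 in WT roots.

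Other genes of the auxin pathway were looked up by name, and 19 of 34 found were measured: GH3 enzymes, which couple auxin to amino acids, PIN transporters, the FIB aminotransferase of auxin synthesis, amidohydrolases and the DAO oxidase, and TOPLESS-related co-repressors. No TIR1 or AFB receptor gene was found by name. With ethylene, 0 of 19 were called in each of the 4 comparisons, where the background was 0.455 to 1.76%. In mhz7 against WT 0 were called in roots in air (background 3.23%), 1 higher and 1 lower in roots in ethylene (7.12%), 1 lower in shoots in air (2.67%) and 1 lower in shoots in ethylene (4.76%). In the limma fits 0 of 19 passed for gas, genotype or either difference of the ethylene effect, where 0.0%, 1.47% and 0.0% of all genes did. For tissue 4 were higher and 11 lower in shoots, where 70.2% of all genes passed. PIN3A, PIN2, GH3.1 and ILL2, counted among these, met the signal minimum through a single tissue and so had to differ between tissues. Their part in the count is a description.

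GH3.2 read 1332 in ethylene and 2286 in air in mhz7 roots, against 3469 and 3292 in WT roots, and was 2.60-fold lower in mhz7 among the ethylene-treated roots. In shoots it read 931 and 1545 in mhz7 and 758 and 1396 in WT, with the ethylene array the lower in each genotype. ILL6, an amidohydrolase-like gene that may free auxin from its conjugates, was 2.64-fold higher in mhz7 than in WT roots in ethylene, at 1338 against 507, and read 1126 in mhz7 and 785 in WT roots in air. Its shoot signals were 938 and 874 in mhz7 and 731 and 767 in WT.

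PIN3A, an auxin efflux carrier gene, read 673 in ethylene and 491 in air in mhz7 shoots, against 1161 and 1059 in WT shoots, and was 2.16-fold lower in mhz7 than in WT shoots in air. All 4 root signals of PIN3A (48.4 to 79.6) were under the floor. PIN3A is read by a probe set of the cross-hybridizing type, so related transcripts may add to its signal. GH3-8 read 239 and 316 in mhz7 shoots, against 538 and 395 in WT shoots, in ethylene and air, and was 2.25-fold lower in mhz7 than in WT shoots in ethylene. In roots it had 892 and 733 in mhz7 and 807 and 620 in WT.

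**Figure D5:**
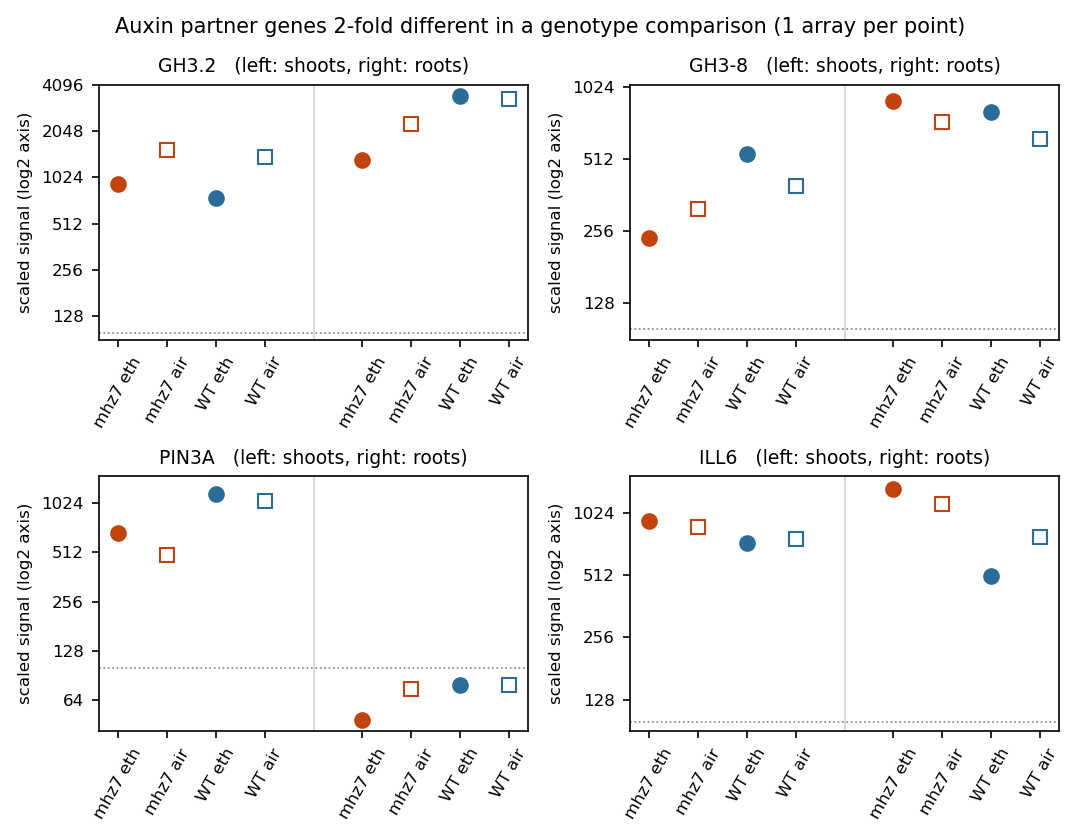
Scaled signal (log2 axis) of GH3.2, GH3-8, PIN3A and ILL6 on the 8 arrays, 1 point per array, shoots left and roots right in each panel, filled circles for ethylene, open squares for air, orange for mhz7 and blue for WT, with the floor of 100 dotted. The gap between genotypes is widest in roots in ethylene for GH3.2 and ILL6, and in shoots for PIN3A and GH3-8.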

How the data were processed

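The deposited values are linear intensity values, made with MAS5 per the submitters' processing notes, with its scaling target and version not given in the sources used here. Total RNA (5 µg) was labelled with biotin, per the labels' protocols. Of 57381 probe sets, 123 controls were set aside. Each array was multiplied by 2.00 to 2.10 so that its mean, without the highest and lowest 2%, became 500. Signals under a floor of 100, 51.5 to 53.1% per array, were set to 100 before log2, so differences between dim signals are understated. Between 20237 and 20547 probe sets per array read above 200. The brightest probe set with a mean of at least 200 stood for a gene.

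Names came from the array gene table (1 gene for 22436 probe sets, several for 95, none for 34727) and the ASM3414082v1 gene table, used for names and neighbours only. Where a gene carried several family numbers (8 genes), the number that no other gene carried was used.

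The fits used limma 3.58.1 in R 4.3.3 on 21444 probe sets, with the pair of arrays as a block, 3 residual degrees of freedom (2 for differences of the ethylene effect) and Benjamini-Hochberg adjustment at 0.05. Fits on 2 pairs alone or with a pair left out have fewer residual degrees of freedom than the 4-pair fits, so their SEs are less certain. They were tested on simulated data. Other steps used Python 3.11.15, numpy 2.4.6, pandas 2.3.3, scipy 1.17.1 and matplotlib 3.10.9. Values on all arrays are given for EIN2, for members 2-fold different in a gas or genotype comparison, for the 5 members with the smallest adjusted tissue p in each direction, and for the 3 brightest and 3 dimmest members; partner genes were named where 2-fold different, and other members after their values were seen. The members and lists were chosen with earlier results of these data known. Alternatives were other floors, scalings, thresholds, probe set rules and left-out pairs. Promoter and protein sequences were not used here.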

Additional observations from a re-analysis of the deposited data

How the results depend on the processing

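Of 119 alternative counts of members, 109 were equal to the reported count or within 1.5 times of it, and 10 moved. Many of the reported counts were 0, some in fits that 0.0% of all genes passed, and so had little room to move. At a 1.5-fold limit the ethylene count was 4 in WT roots and 2 in WT shoots, and the mhz7 count was 1 in roots in air, 4 in roots in ethylene, 4 in shoots in air and 5 in shoots in ethylene. At 3-fold it was 1 for ethylene in WT roots, 1 for mhz7 in roots in ethylene and 0 for mhz7 in shoots in air. The share of all genes called at these 2 limits was not counted, so these counts have no background beside them. Quantile normalization left 1 ethylene call in WT roots, as IAA26 came to 0.98 on the log2 scale. The counts of the ethylene, genotype and ethylene-effect fits stayed at 0 under every alternative run, and the tissue count lay between 25 and 29. Of 841 alternative values of single members, 822 kept direction and call, 18 lost the call (IAA26 above, and ARF4, ARF12 and IAA31 between tissues) and 1 reversed. IAA26 in mhz7 minus WT lay between -0.44 and 0.11 with 1 pair left out, the reversed value without the pair of roots in ethylene (adjusted p = 0.719), the pair that holds its 2-fold difference. The fits are paired by design, each pair being the arrays that share the other factors, and a block by replicate number could not be fitted because the labels carry none. Without the WT root pair, the ethylene value was 0.30 for IAA20, 0.11 for IAA26 and 0.15 for IAA2, where the 4 pairs gave 0.75, 0.34 and 0.33. The floor limits IAA14 in roots and IAA26 in shoots to bounds.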

Other observations

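Members with a second probe set over the signal minimum allow a check within the arrays. ARF2, ARF4, ARF23 and IAA23 have one each, and over the 8 comparisons of gas or genotype the probe sets of a gene differed by at most 0.18 for ARF2, 0.12 for ARF4, 0.25 for ARF23 and 0.26 for IAA23 on the log2 scale. Some small differences changed sign, such as ARF23 with ethylene in WT roots, at 0.23 and, for the brighter probe set, -0.03. IAA20, IAA26, IAA9 and IAA2 have 1 probe set each, so their 2-fold differences have no such check. For ARF2 the second probe set gave 0.57 in mhz7 minus WT roots in ethylene, where the brighter one gave 0.50, and -0.52 for ethylene minus air in WT shoots, where the brighter one gave -0.54.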
